A study of Homo sapiens with 8 samples.

Results

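The annexins are a family of proteins that bind membranes in a calcium-dependent way, and their genes were followed here through the loss of the transcription factor FOXA1. The 10 genes ANXA1 to ANXA9 and ANXA11 were chosen by name from the symbol column of a count table of 30434 genes. All 10 were in the table and all passed the filter on low counts, which left 16430 genes. The lowest count of any of them in any library was 95, so none passed through 1 group only. The libraries came from SKBR3, an established human breast cancer line with amplified ERBB2 (HER2), grown in the same serum-containing medium throughout. The 4 control libraries are labelled as wild type, and the 4 knockdown libraries came from a stable line carrying lentiviral short hairpin RNAs against FOXA1. The labels do not say whether control cells carried a control vector, whether the knockdown line was a clone, or whether replicates were separate cultures. The p-values therefore measure the spread between these libraries, which may be technical.

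Each annexin joins a conserved core, which binds calcium and acidic phospholipids, to a variable amino-terminal tail that carries binding sites for partner proteins and kinases. ANXA2 and ANXA1 pair through this tail with the small proteins S100A10 and S100A11. Annexins are known for roles in membrane traffic, resealing of torn plasma membrane, anchoring of actin at the membrane and, for ANXA1, signalling through formyl peptide receptors. In breast epithelium the luminal and basal layers are known to differ in their annexins.

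The knockdown was seen in its target. FOXA1 had 4180, 4239, 4071 and 4397 counts in the controls and 89, 87, 83 and 92 in the knockdown libraries, which left 2.06% of its control level in CPM (counts per 1000000, with library sizes scaled by TMM). Library totals ran from 19087878 to 23786684 counts. The first principal component of log2 CPM separated the groups, and on the second, the control libraries were at 9.52 to 16.3 except for replicate 3, at -40.1. Of the epithelial genes checked, ERBB2, KRT8, KRT18, KRT19 and EPCAM, every one was detected, with a summed level of 16200 to 18000 CPM in control and 10800 to 11700 in knockdown. ERBB2 (7298 to 1338 CPM) and KRT19 (2642 to 722.0 CPM) fell, while KRT8 (4513 to 5612 CPM), KRT18 (2309 to 3452 CPM) and EPCAM (179.2 to 225.9 CPM) rose. Fibroblast markers summed to 5.26 to 6.97 CPM in control and 10.8 to 11.9 in knockdown. LUM was not analysed here, and COL1A2 and DCN had 3 or fewer counts in every library. COL3A1 accounted for most of the difference, at 0 or 1 count in control and 90 to 104 counts in knockdown. PDGFRB also rose, from 0.41 to 2.83 CPM, while COL1A1 fell from 5.38 to 4.32 CPM (edgeR adjusted p = 0.0169). Leukocyte markers summed to 4.76 to 5.85 CPM in control and 0.693 to 1.66 in knockdown. CD3E was not analysed here, and PTPRC and CD79A had 3 or fewer counts in every library. CD68 made up most of the sum in control and fell from 4.93 to 0.588 CPM. CD14 went the other way at a low level, from 0.181 to 0.532 CPM. Endothelial markers summed to 20.7 to 22.1 CPM in control and 19.8 to 22.4 in knockdown, but within them VWF fell from 5.21 to 0.844 CPM (edgeR adjusted p = 3.31e-13) and CDH5, which made up most of the sum, rose from 16.1 to 20.05 CPM (6.28e-05). The part of such markers in the results below was not tested.

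ANXA8, ANXA1, ANXA2, ANXA7 and ANXA11 were higher in knockdown, and ANXA9, ANXA6, ANXA5 and ANXA4 were lower. ANXA3 did not pass the threshold. In RNA from whole cultures, fewer cells with an RNA and less of it per cell cannot be told apart. The changes reached from about 15.7-fold up for ANXA8 to 4.72-fold down for ANXA9. In edgeR's quasi-likelihood test, adjusted over all genes tested, 9 of the 10 passed at 0.05, where 77.1% of all genes tested did. The 5 higher genes compare with 39.4% of all genes called higher, and the 4 lower ones with 37.7% called lower. The called change was 2-fold or more for 4 of the 10, against 28.3% of all genes. Of these 4, ANXA8 and ANXA1 were higher (14.9% of all genes) and ANXA6 and ANXA9 lower (13.4% of all genes). The groups did not overlap in CPM for 9 of the 10, against 72.0% of all genes. The median log2 change was 0.19 over the 10 annexins and 0.02 over all genes, and the medians of its absolute size were 0.54 and 0.51. For each of the 9 genes whose groups did not overlap, the exact permutation test, two-sided, had p = 0.0286, the smallest that 4 against 4 libraries allow, and for ANXA3 it had p = 0.171.

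**Figure D1:**
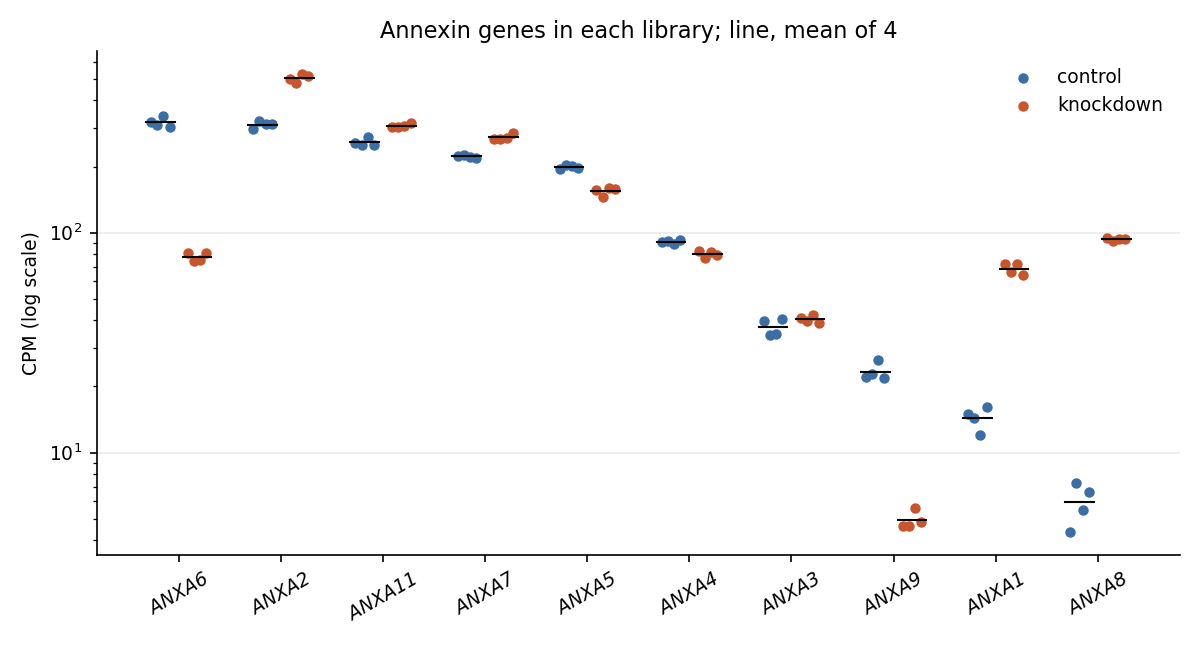
CPM of each annexin gene in each library, on a log scale, ordered by the control mean; points are single libraries (4 control, 4 knockdown) and lines are group means. ANXA6 and ANXA9 drop to a lower level in all 4 knockdown libraries, ANXA1 and ANXA8 rise, and the groups overlap only for ANXA3.

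ANXA8, an annexin of stratified and basal epithelia that associates with endosomes and actin, showed the largest rise. It had 4.34, 7.30, 5.50 and 6.58 CPM in control replicates 1 to 4 and 94.7, 91.2, 93.8 and 94.0 CPM in knockdown replicates 1 to 4. Every knockdown library lay more than 10-fold above every control library. The mean went from 5.93 CPM ± 1.29 to 93.4 CPM ± 1.53 (SD, n = 4 per group), a log2 change of 3.97 (SE 0.164) with an edgeR adjusted p of 2.05e-16. Of all genes tested, 4.14% had a higher log2 change.

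ANXA8 has a near-identical copy, ANXA8L1, about a megabase away on chromosome 10. Of the 31-base words in the GENCODE transcripts of ANXA8, 50.04% also occur in ANXA8L1, and 86.5% of those of ANXA8L1 occur in ANXA8, so the division of reads between them is uncertain. ANXA8L1 rose with ANXA8, from 5.13 CPM ± 0.953 to 67.2 CPM ± 3.13 (SD, n = 4 per group; log2 change 3.71 with SE 0.143; edgeR adjusted p = 7.85e-21). With any other gene, 79.2% of the words of ANXA8 and 88.4% of those of ANXA8L1 are shared, so the sum of both removes the division between these copies but not that with further genes. It had 9.97 to 11.6 CPM in control and 156.3 to 165.4 in knockdown, a log2 change of 3.86 (edgeR adjusted p = 8.77e-28). The share of the sum given to ANXA8 ranged from 43.6% to 64.9% over the control libraries and from 56.7% to 59.3% over the knockdown libraries. In control the SD was 1.29 CPM on a mean of 5.93 CPM for ANXA8 and 0.742 CPM on a mean of 11.1 CPM for the sum.

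ANXA1, which is induced by glucocorticoids, restrains phospholipase A2 and acts outside the cell on formyl peptide receptors, also rose. It had 15.1, 14.4, 12 and 16.1 CPM in control and 72.3, 66.0, 72.4 and 64.1 CPM in knockdown. The lowest knockdown library was far above the highest control, and control replicate 3 was the lowest of all. The mean rose from 14.4 CPM ± 1.75 to 68.7 CPM ± 4.29 (SD, n = 4 per group), 4.77-fold, with a log2 change of 2.25 (SE 0.102, edgeR adjusted p = 1.42e-16). Without control replicate 3 the log2 change was 2.17. Of all genes tested, 7.68% had a higher one.

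ANXA2 anchors S100A10 at the plasma membrane, where the pair binds plasminogen and its activator, and it is a substrate of the kinase SRC. It had 296.7, 321.0, 310.7 and 311.9 CPM in control and 502.5, 482.2, 528.9 and 517.9 CPM in knockdown. The groups were well apart, and the rise from 310.1 CPM ± 10.0 to 507.8 CPM ± 20.3 (SD, n = 4 per group) was 1.64-fold (log2 change 0.71, SE 0.0373, edgeR adjusted p = 1.44e-15). Its processed copies ANXA2P1, ANXA2P2 and ANXA2P3 had at most 4 counts in any library, although 7.55% of the 31-base words of ANXA2 also occur in ANXA2P2. Adding them left the log2 change at 0.71.

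ANXA7 and ANXA11 share a long, glycine- and proline-rich tail and are known to bind the calcium sensors SRI and PDCD6; ANXA11 also ties RNA granules to lysosomes. Both rose by a small amount. ANXA7 had 223.9, 225.7, 220.5 and 219.4 CPM in control and 266.9, 266.3, 269.3 and 283.1 CPM in knockdown (1.22-fold, log2 change 0.29, SE 0.0228, edgeR adjusted p = 1.7e-08). ANXA11 had 256.2, 251.1, 272.3 and 251.1 CPM in control and 303.1, 304.0, 304.4 and 316.4 CPM in knockdown (1.19-fold, log2 change 0.25, SE 0.0313, edgeR adjusted p = 3.04e-07). These rises do not exceed those of their chromosomal neighbours by much or at all, as given further on.

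ANXA6 carries a duplicated core and is known as a scaffold that brings the Ras inhibitor RASA1 and the kinase PRKCA to the membrane. Its change had the smallest adjusted p of the 10. It had 319.5, 309.7, 338.1 and 304.0 CPM in control and 80.5, 74.1, 75.0 and 80.9 CPM in knockdown. Even the highest knockdown library lay far below the lowest control. The mean fell from 317.8 CPM ± 14.95 to 77.6 CPM ± 3.58 (SD, n = 4 per group), leaving 24.4% of the control level (log2 change -2.03, SE 0.0473, edgeR adjusted p = 7.81e-24). Of all genes tested, 6.40% had a lower log2 change. None of its 31-base words occurred in another gene.

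ANXA9 is an atypical annexin whose core has lost residues that bind calcium in the other members. It had 22, 22.8, 26.2 and 21.9 CPM in control and 4.63, 4.62, 5.59 and 4.85 CPM in knockdown. It fell from 23.2 CPM ± 2.04 to 4.92 CPM ± 0.460 (SD, n = 4 per group), to 21.2% of the control level (log2 change -2.24, SE 0.0891, edgeR adjusted p = 3.21e-18). Control replicate 3 was the highest control, and without it the log2 change was -2.19. ANXA9, too, shared no 31-base word with another gene.

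ANXA5, which binds phosphatidylserine on the surface of dying cells and is used to stain them, fell less. It had 195.2, 202.6, 200.03 and 197.4 CPM in control and 155.8, 144.7, 160.3 and 158.2 CPM in knockdown (77.8% of control, log2 change -0.36, SE 0.0349, edgeR adjusted p = 1.72e-09). ANXA4, an annexin of secretory epithelia, had 91.1, 91.7, 89.0 and 92.7 CPM in control and 82.9, 77.0, 82.0 and 79.6 CPM in knockdown (88.2% of control, log2 change -0.18, SE 0.0272, edgeR adjusted p = 0.000153). The groups were separate for each gene, by a narrower margin for ANXA4. The gene span of ANXA4, introns included, overlaps that of AAK1 by 29925 bp on the opposite strand. AAK1 averaged 936.75 counts per library. How far exons overlap was not computed, so the small change of ANXA4 is uncertain if strand was not used in counting.

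ANXA3, an annexin abundant in neutrophil granules, had 39.5, 34.4, 34.4 and 40.3 CPM in control and 40.9, 39.8, 42.4 and 38.7 CPM in knockdown. The groups overlapped (log2 change 0.12, SE 0.0678, edgeR adjusted p = 0.0509). It lay just outside the threshold and passed it in 9 of the 20 alternatives, always as a rise.

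**Figure D2:**
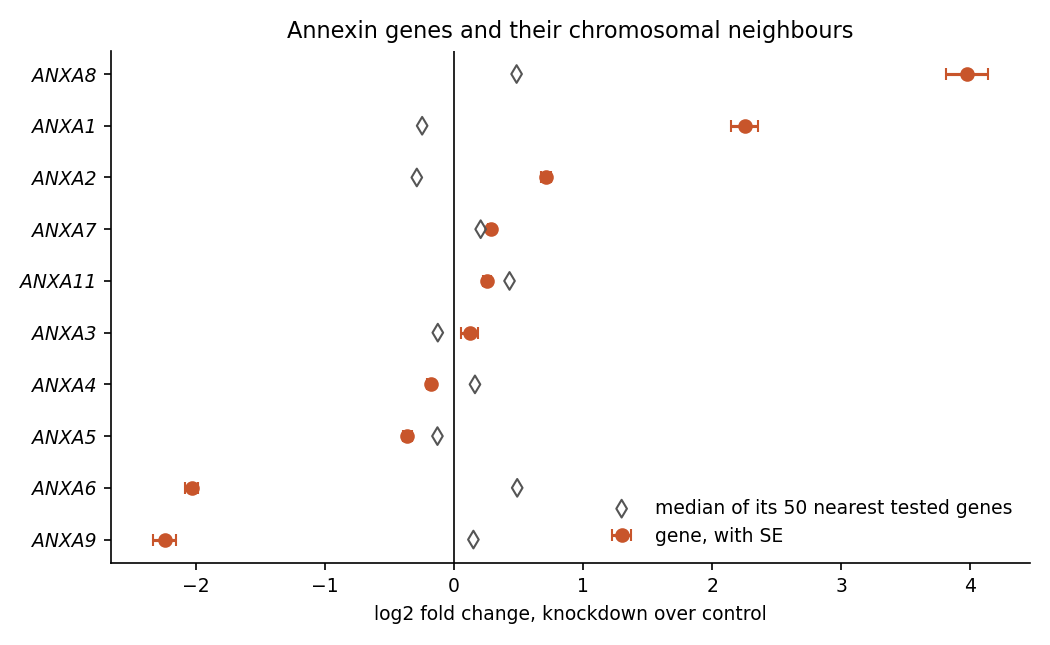
Log2 fold change of each annexin gene, knockdown over control, with its SE (filled circles), beside the median log2 change of its 50 nearest tested genes on the chromosome (open diamonds). ANXA8, ANXA1, ANXA6 and ANXA9 lie far from their neighbours, while ANXA7 and ANXA11 lie close to them.

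The 10 genes lie at separate places in the genome, and the change of each was set beside those of its chromosomal neighbours. Whether the medians of neighbours differ from those of randomly placed genes was not tested. The median log2 change of the 50 nearest tested genes was -0.25 around ANXA1 (chromosome 9, 73151757 to 73170393), -0.29 around ANXA2 (chromosome 15, 60347134 to 60402883), 0.49 around ANXA6 (chromosome 5, 151100712 to 151157882) and 0.15 around ANXA9 (chromosome 1, 150982017 to 150995634). Each of these 4 genes changed in the direction opposite to the median of its neighbours. With the regional median taken out, the log2 changes were 2.50 for ANXA1, 1.00 for ANXA2, -2.52 for ANXA6 and -2.39 for ANXA9. ANXA8 (chromosome 10, 47460162 to 47484158) had a neighbourhood at 0.48 and kept 3.49. For ANXA5 and ANXA3, both on chromosome 4 (121667955 to 121697113 and 78551519 to 78610451), the neighbourhoods were at -0.13 each, and the genes then stood at -0.23 and 0.25. ANXA4 (chromosome 2, 69644425 to 69827100) had a neighbourhood at 0.16 and stood at -0.34.

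The small rises on the long arm of chromosome 10 were close to or below the median change of their neighbours. ANXA7 (73375101 to 73414076) had a neighbourhood at 0.21, and with it taken out its log2 change was 0.08 (edgeR adjusted p = 0.0278, where the alternatives ranged from 2.39e-16 to this value). ANXA11 (80150889 to 80205572) had one at 0.43, above its own change. With it taken out the log2 change of ANXA11 was -0.18 (edgeR adjusted p = 5.27e-05, where the alternatives ranged from 2.49e-11 to this value). The regional median entered these fits as a fixed value, so neither adjusted p includes the error of that median. Positions are from GENCODE 29 on GRCh38.

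Levels of different annexins can be set side by side only per length of transcript. In control the order by CPM per kilobase was ANXA2 (185.0 to 216.1, depending on which principal transcript is taken), ANXA6 (122.6), ANXA5 (112.8) and ANXA7 (102.3), whose libraries did not overlap. ANXA11 stood at 37.0 to 101.7, a range set by transcripts of 2534 to 6965 bases. With the shortest, its control libraries reached 107.4 and overlapped those of ANXA7 (100.9 to 103.8), so the order of this pair is not settled. ANXA4 (32.6), ANXA3 (22.4), ANXA9 (12.7), ANXA1 (6.52 to 9.54) and ANXA8 (3.03) followed. In knockdown ANXA2 (303.0 to 353.9) again led, before ANXA7 (124.8) and ANXA5 (87.8). The place of ANXA11 (44.1 to 121.1) depended on the transcript: with the shortest its libraries overlapped those of ANXA7, and with the longest it lay below ANXA5 and ANXA8. ANXA8 stood at 47.7 and ANXA1 at 31.1 to 45.5, so both were at or above ANXA6 (29.9), ANXA4 (28.7) and ANXA3 (24.4), with ANXA9 last at 2.70. The values of ANXA8 in both groups also depend on the uncertain division of reads between it and ANXA8L1. ANXA6 and ANXA4 overlapped between libraries in knockdown (28.6 to 31.2 and 27.5 to 29.6) and are not separated there. With its longer transcript ANXA1 overlapped ANXA6 as well, and with its shorter one it overlapped ANXA8.

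The make-up of the annexin counts changed more than their sum. The 10 genes together took 0.144% ± 0.00171 of all counts in control and 0.165% ± 0.00316 in knockdown (SD, n = 4 per group). The share of these counts held by ANXA6 went from 21.5% ± 0.763 to 4.83% ± 0.190, and that of ANXA2 from 21.0% ± 0.640 to 31.6% ± 0.572. The counts of ANXA2 were 0.919 to 1.04 times those of ANXA6 in control libraries and 6.24 to 7.05 times in knockdown libraries. ANXA8 and ANXA1 together were a small part in control (0.402% ± 0.0877 and 0.975% ± 0.130) and a larger one in knockdown (5.82% ± 0.0870 and 4.28% ± 0.266; SD, n = 4 per group). These are shares of counts, so a gene with a longer transcript weighs more, and they are compared only between groups.

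**Figure D3:**
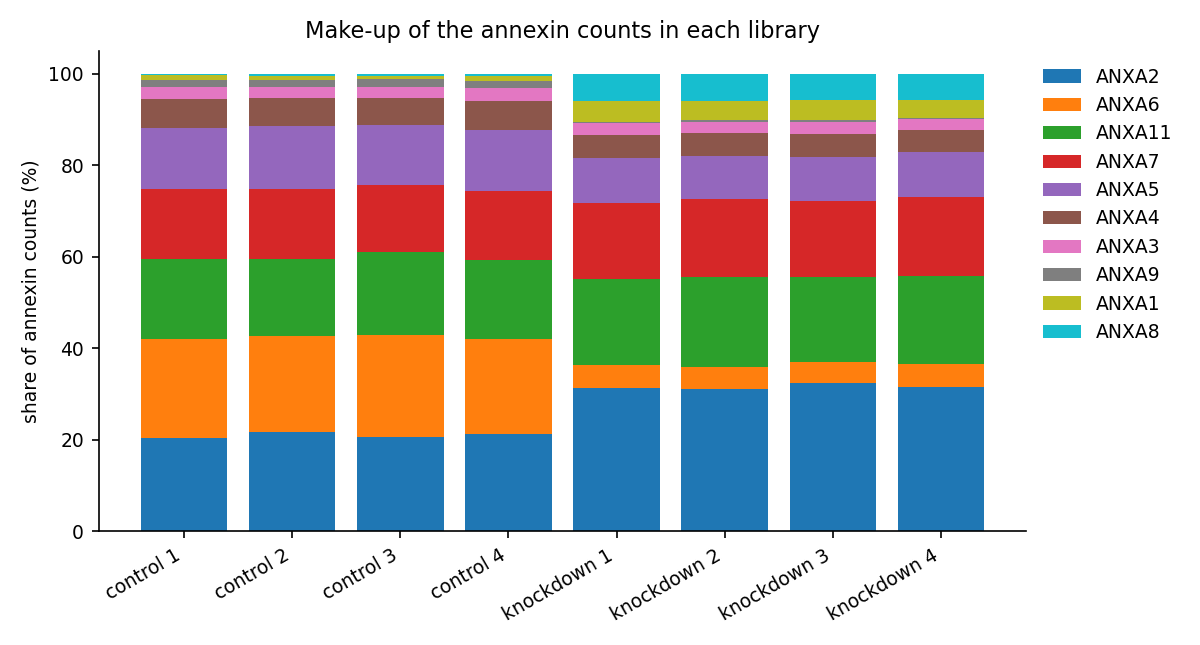
Share of the counts of the 10 annexin genes held by each gene, in percent, for each of the 4 control and 4 knockdown libraries. The ANXA6 band shrinks from 20.8% to 22.4% in control to 4.59% to 5.02% in knockdown, and the bands of ANXA1 and ANXA8 widen.

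The upstream sequences of the strongest movers and of ANXA2 are shown so that genes that rose and genes that fell can be compared at their listed starts. Windows of 250 bases before a gene start, from RefSeq on GRCh38.p14, were matched by symbol for 9 of the 10 annexins (not ANXA8) and for ANXA8L1. Each line runs 5′ to 3′ on the strand of the gene and ends next to the RefSeq start. By the GENCODE positions, the windows of ANXA2 and ANXA9 lie wholly inside the gene span. Those of ANXA1, ANXA6 and ANXA8L1 lie partly inside it. Upstream therefore refers here to the RefSeq start, and the sequence before the GENCODE starts was not searched separately. Capitals mark the core promoter letters TATAAA and the AP-1 site TGAGTCA, searched on both strands together with forkhead letters given further on. The windows are chr9:73151615-73151864 (plus strand) for ANXA1, chr15:60397987-60398236 (minus) for ANXA2, chr5:151157780-151158029 (minus) for ANXA6, which has a further listed start, chr1:150982042-150982291 (plus) for ANXA9 and chr10:46375526-46375775 (plus) for ANXA8L1.
ANXA1: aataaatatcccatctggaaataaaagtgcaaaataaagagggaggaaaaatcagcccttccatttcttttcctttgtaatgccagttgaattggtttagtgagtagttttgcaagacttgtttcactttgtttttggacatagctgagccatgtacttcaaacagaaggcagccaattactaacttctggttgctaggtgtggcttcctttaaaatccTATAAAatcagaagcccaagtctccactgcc
ANXA2: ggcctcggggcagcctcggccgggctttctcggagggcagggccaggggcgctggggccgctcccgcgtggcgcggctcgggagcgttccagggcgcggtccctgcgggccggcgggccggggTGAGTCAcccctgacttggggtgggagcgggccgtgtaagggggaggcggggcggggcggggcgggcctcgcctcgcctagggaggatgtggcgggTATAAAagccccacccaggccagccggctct
ANXA6: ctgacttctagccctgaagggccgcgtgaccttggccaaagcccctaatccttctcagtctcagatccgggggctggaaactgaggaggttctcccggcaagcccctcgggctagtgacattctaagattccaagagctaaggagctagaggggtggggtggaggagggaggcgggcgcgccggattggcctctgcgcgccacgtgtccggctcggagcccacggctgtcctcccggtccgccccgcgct
ANXA9: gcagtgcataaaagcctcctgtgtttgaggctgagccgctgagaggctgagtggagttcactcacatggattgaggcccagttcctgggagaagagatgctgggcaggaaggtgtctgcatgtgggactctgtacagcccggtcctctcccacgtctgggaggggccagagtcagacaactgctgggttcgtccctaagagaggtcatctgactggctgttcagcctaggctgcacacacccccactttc
ANXA8L1: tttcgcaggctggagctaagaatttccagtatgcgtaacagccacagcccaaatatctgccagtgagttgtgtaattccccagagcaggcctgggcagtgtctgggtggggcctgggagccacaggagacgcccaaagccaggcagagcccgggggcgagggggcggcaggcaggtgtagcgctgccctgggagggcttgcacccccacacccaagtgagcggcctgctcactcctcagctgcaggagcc

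ANXA1 and ANXA2 both had TATAAA from 31 to 26 bases before the RefSeq start, and ANXA2 had TGAGTCA from 127 to 121 bases before it. TATAAA was present in 10.7% and TGAGTCA in 4.2% of all 35114 windows of this length. Apart from that the pair differed. The ANXA1 window had a GC content of 38.4% and no CG pair, and the ANXA2 window 78.0% and 28 CG pairs, where the medians over all windows were 58.0% and 11. The windows of ANXA6 (65.6%, 19 CG pairs), ANXA9 (58.0%, 4) and ANXA8L1 (64.0%, 8) held none of these motifs. A window listed for ANXA11, not printed here, had TATAAA from 61 to 56 bases before its start. The forkhead letters TGTTTAC were present in 2.98% of all windows, and the variant TGTTTGC in 3.23%. Neither was in any of the 14 windows listed for these genes, which says only that these letters are not in those windows.

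Relatives outside the 10 were few. ANXA13 had at most 1 count in any library, and ANXA10 was not analysed here. ANXA2R, which encodes a reported receptor of ANXA2, had 15, 15, 22 and 15 counts in control and 4, 3, 5 and 9 in knockdown (log2 change -1.67, SE 0.384, edgeR adjusted p = 0.000155), a low level in both groups. It passed the filter on low counts through the control group only, which limits what its test shows.

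Genes of proteins that bind annexins, or that act in processes they are known for, were taken as 7 lists of 48 genes in all. Of the 41 that could be tested, 19 were higher and 17 lower in knockdown, where 39.4% and 37.7% of all genes were. The share called, 87.8%, stands beside 77.1% for all genes, and 33 of the 41 had groups that did not overlap, beside 72.0% of all genes. The counts of each list below stand beside these shares. Scaling by library size alone gave 21 higher and 12 lower.

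**Figure D4:**
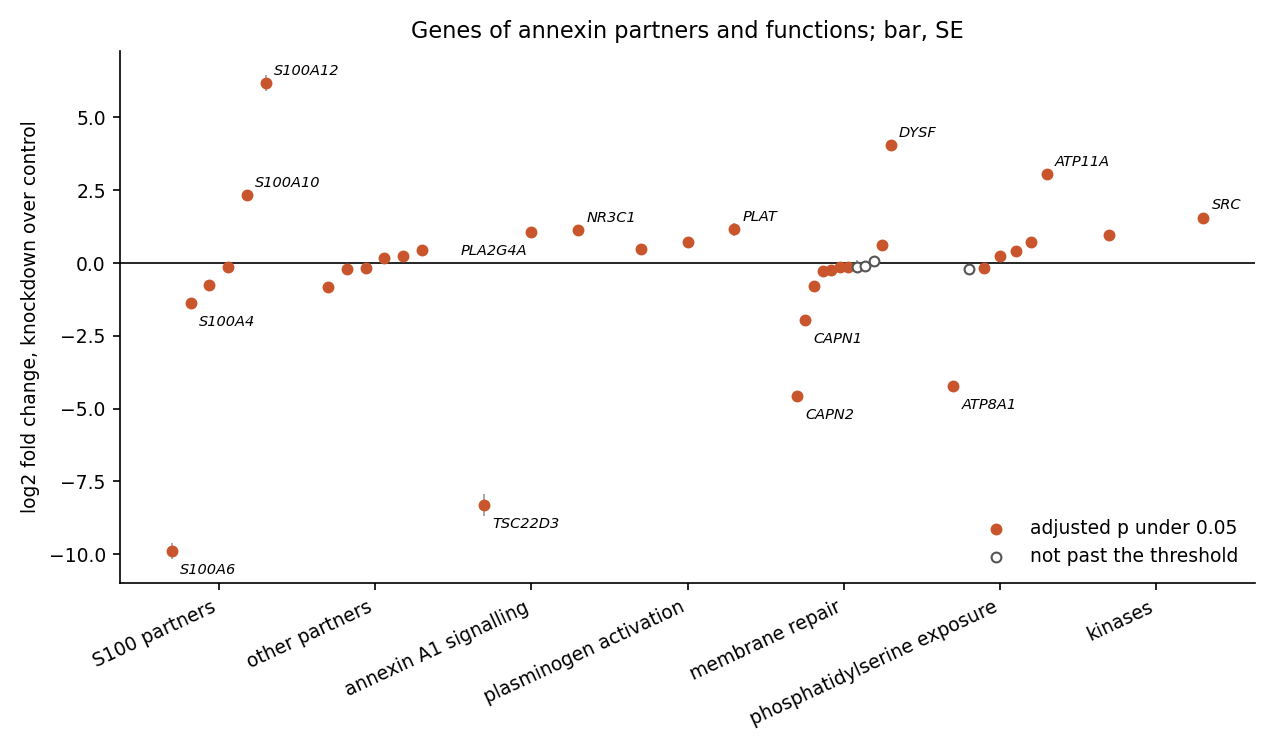
Log2 fold change, knockdown over control, of the tested genes reported from the 7 partner lists, with SE; filled circles passed an adjusted p of 0.05 and open circles did not. The S100 partners spread from S100A6, at -9.89, to S100A10 and S100A12 above 0, and genes with at least a 2-fold change are named.

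The S100 partners were divided. Of the 6 tested, 2 were higher and 4 lower (39.4% and 37.7% of all genes). S100A10, the partner of ANXA2, had 1368, 1371, 1380 and 1225 counts in control and 6981, 7244, 5949 and 6873 in knockdown. It rose 4.99-fold, from 60.7 CPM ± 5.53 to 303.2 CPM ± 10.0 (SD, n = 4 per group; log2 change 2.32 with SE 0.0723; edgeR adjusted p = 3.36e-17). Both members of the pair rose, S100A10 by more. The ratio of ANXA2 counts to S100A10 counts was 4.74, 5.16, 4.75 and 5.92 in control and 1.70, 1.63, 1.75 and 1.63 in knockdown. It fell to 0.326 of its control mean (exact two-sided permutation p = 0.0286). S100A11, the partner of ANXA1, changed little, from 372.7 CPM ± 21.2 to 340.6 CPM ± 14.4 (SD, n = 4 per group; log2 change -0.13 with SE 0.0504; edgeR adjusted p = 0.00484). Its groups overlapped, and with upper-quartile scaling or library size alone it did not pass (adjusted p of 0.123 and 0.258, in a range over the alternatives of 2.86e-06 to 0.258). The ratio of ANXA1 counts to S100A11 counts rose 5.19-fold, from 0.0389 ± 0.00671 to 0.202 ± 0.0168 (SD, n = 4 per group; exact two-sided permutation p = 0.0286).

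S100A6, which binds several annexins including ANXA11, was nearly lost. It had 19259, 19676, 20621 and 20768 counts in control and 34, 18, 12 and 21 in knockdown, or 0.103% of the control level in CPM (log2 change -9.89, SE 0.265, edgeR adjusted p = 2.47e-21). S100A4 fell from 153.6 CPM ± 4.83 to 59.2 CPM ± 4.32 (SD, n = 4 per group; log2 change -1.38). S100A12 went from 2 to 5 counts per library in control to 218 to 309 in knockdown, and passed the filter through the knockdown group only. S100A1 was lower too (log2 change -0.75), but its gene span, introns included, overlaps that of S100A13 by 3435 bp on the opposite strand. How far exons overlap was not computed, so the value of S100A1 is uncertain. These 6 genes lie between 151982915 and 153632039 on chromosome 1.

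Among the other partners, 3 were higher and 3 lower, all by less than 2-fold; of these GRN is the least established as a partner. Both partners of ANXA6 were measured. PRKCA fell from 39.9 CPM ± 1.18 to 22.7 CPM ± 0.912 (log2 change -0.81, and -0.39 with its regional median taken out), and RASA1 rose from 47.5 CPM ± 3.12 to 65.6 CPM ± 1.32 (log2 change 0.47; SD, n = 4 per group). The gene span of RASA1, introns included, overlaps that of CCNH by 73516 bp on the opposite strand, and exon overlap was not computed. With the regional median taken out, the log2 change of RASA1 was -0.005. PDCD6 had a log2 change of 0.18 and SRI of -0.21, and each changed sign when the regional median was taken out (-0.15 and 0.02).

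Genes tied to ANXA1 signalling moved by more. Among the receptors FPR1 was not analysed here, and FPR2 and FPR3 were at or near the limit of detection. FPR2 had at most 1 count. FPR3 had 6, 17, 8 and 10 counts in control but no count in the knockdown libraries, which allows up to 0.153 CPM in the smallest. This limit covers counting error only. FPR3 was below the filter, and its gene span overlaps that of ZNF577 on the opposite strand. NR3C1, the glucocorticoid receptor, rose from 45.0 CPM ± 2.35 to 99.1 CPM ± 3.23 (SD, n = 4 per group; log2 change 1.14, SE 0.0444). TSC22D3, a glucocorticoid-induced gene as ANXA1 is, went the other way, from 111.6 CPM ± 4.90 to 0.348 CPM ± 0.153 (SD, n = 4 per group; edgeR adjusted p = 3.91e-28). It had 2427 to 2489 counts in control and 3 to 11 in knockdown, and passed the filter through the control group only. PLA2G4A, a phospholipase A2 that ANXA1 restrains, rose 2.11-fold at a low level, from 1.57 CPM ± 0.351 to 3.31 CPM ± 0.273 (SD, n = 4 per group).

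In plasminogen activation, 3 of 4 tested genes were higher and 1 did not pass; the share called, 75%, is near the 77.1% of all genes. PLAT, the activator that ANXA2 binds, rose from 1.32 CPM ± 0.395 to 2.98 CPM ± 0.255 (SD, n = 4 per group; log2 change 1.16). PLAU and PLG were below the filter, with 2 to 4 counts of PLAU per knockdown library and 6 to 12 per control library.

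Of the 12 tested genes of plasma membrane repair, 2 were higher, 7 lower and 3 did not pass, against 39.4% higher and 37.7% lower over all genes; the share called, 75%, is near the 77.1% of all genes. DYSF (dysferlin), which recruits annexins to torn membrane, rose from 2.80 CPM ± 0.393 to 46.0 CPM ± 2.06 (SD, n = 4 per group; log2 change 4.04 with SE 0.112; edgeR adjusted p = 3.12e-24). The calpains, calcium-activated proteases that act in the same process, fell. CAPN2 had 1006 CPM ± 4.26 in control and 42.8 CPM ± 1.89 in knockdown (log2 change -4.56, SE 0.0314, edgeR adjusted p = 2.62e-31). CAPN1 went from 435.8 CPM ± 14.5 to 111.5 CPM ± 5.58 (SD, n = 4 per group; log2 change -1.97).

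Of the 8 genes that set where phosphatidylserine, the lipid bound by ANXA5, lies in the membrane, 5 were higher, 2 lower and 1 did not pass, where 39.4% of all genes were higher and 37.7% lower. The flippase gene ATP11A rose from 18.4 CPM ± 0.727 to 153.9 CPM ± 5.80 (SD, n = 4 per group; edgeR adjusted p = 2.18e-26). The flippase gene ATP8A1 fell from 52.0 CPM ± 3.30 to 2.81 CPM ± 0.215 (SD, n = 4 per group; edgeR adjusted p = 7.9e-25). Both kinases listed as acting on annexins were higher, SRC from 53.6 CPM ± 1.86 to 157.5 CPM ± 8.17 (SD, n = 4 per group; log2 change 1.56, edgeR adjusted p = 5.15e-21) and EGFR with a log2 change of 0.96.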

How the data were processed

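RNA was sequenced from 8 SKBR3 libraries, 4 control and 4 FOXA1 knockdown. The authors deposited raw counts per gene as whole numbers, with no scaling between libraries. Salmon 1.9, FastQC, DESeq2 3.16 and hg38 are named, per the submitters' processing notes, without a role for each. Salmon estimates counts, so the deposited numbers may be rounded estimates in which reads that fit several genes were divided between them. The annotation release and the use of strand are not given in the sources used here.

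Groups were taken from the sample titles. Genes were kept by filterByExpr (edgeR 4.0.16, R 4.3.3; minimum 10 counts, total 15), which left 16430 of 30434. Libraries were scaled by TMM, and knockdown was compared with control by edgeR's quasi-likelihood test with robust estimation. Benjamini-Hochberg adjustment ran over all genes tested, with a threshold of 0.05. CPM is the count per 1000000 counts of the TMM-scaled library. Standard errors use the variance of log2 CPM within each group, 0.5 being added to counts. Exact permutation tests were two-sided over the 70 divisions into 4 and 4. Positions and lengths come from GENCODE 29 on GRCh38, matched by Ensembl identifier for 96.5% of genes, and the shortest and longest principal transcripts give the range of values per kilobase. Promoter windows come from RefSeq on GRCh38.p14. Library totals ran from 19087878 to 23786684 counts. In a test on simulated counts of 16046 genes for the same comparison, changes of 0.5, 1 and 2 on the log2 scale were called with the right sign in 64.5%, 92.4% and 100% of cases, beside 20 calls in unchanged genes. These changes were given to only 62, 66 and 67 genes, of which 40, 61 and 67 were called with the right sign. In the data 77.1% of genes were called, so these shares may not carry over. The alternatives used RLE, upper-quartile or no scaling factors, other filters, DESeq2 1.42.0, limma 3.58.1 voom, a replicate block, an offset for the chromosomal region, sums over gene copies and leaving out each library.

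The annexin genes, the partner lists, the tests and the alternatives were chosen with earlier results of these data known. All 10 annexin genes and their listed relatives are named. Of the partner genes, those past the threshold with at least a 2-fold change are named, or otherwise the largest changes of a list; 2 partner genes are in the counts but are otherwise not reported here. Other genes named were chosen after their values were seen.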

Additional observations from a re-analysis of the deposited data

Results flagged for a closer look

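Dixon's test for a single distant value was applied to the control and knockdown libraries of the 10 annexins, ANXA8L1 and FOXA1, 24 sets of 4 values in all. It marked 1 set, where chance marks about 1.2. ANXA11 was high in knockdown replicate 4, at 316.4 CPM against 303.1 to 304.4 CPM in the others, which put the distance to its neighbour at 0.899 of the range.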

How the results depend on the processing

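Over the 19 alternatives that kept each gene copy separate and 1 that summed copies, the annexins called higher were 5 or 6 and those called lower 4 or 5. The sixth higher gene was ANXA3, and the fifth lower one was ANXA11. With the regional median taken out, ANXA11 reversed to -0.18, PDCD6 to -0.15, SRI to 0.02 and RASA1 to -0.005; the last 2 did not pass. ANXA7 moved to 0.08 under the same setting. The other 9 annexins, ANXA7 included, kept their direction under all alternatives run. The replicate numbers are shared between groups. Deviations of same-numbered libraries from their group means correlated weakly, at 0.0877, 0.168, -0.0355 and 0.0661 for replicates 1 to 4 over 12420 genes. Other combinations ran from -0.119 (control 2 with knockdown 1) to 0.074 (control 1 with knockdown 3). For replicates 1, 2 and 4 the same-numbered value was the highest that either library had. Whether the numbers mark pairs or a shared batch was not tested. With a replicate block 12453 genes were called in place of 12675, with 5 annexins higher and 4 lower, and 19 partner genes higher and 16 lower. Leaving out each library gave 12494 to 12865 calls. Depth limits FPR3, PLAU and ANXA2R, which had under 25 counts in every library.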
